A study of Drosophila melanogaster with 12 samples.

Results

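The comparison set 3 SvbRep libraries against 3 libraries labelled RNAiSvb, 6 of the 12 RNA-seq libraries of the series, all made from enteroblasts sorted from the adult *Drosophila melanogaster* midgut. Both manipulations are directed at Shavenbaby (Svb), the zinc finger transcription factor made from the gene ovo. The samples were chosen by their labels, and the comparison asks how far a repressor form of the protein and a hairpin against its transcript differ in what they do to enteroblast RNA. All flies were virgin females of 9 days that had spent the last 6 days at 29 °C, and all carried 1 copy of esg-Gal4 with UAS-GFP together with tubGal80TS. At that temperature the Gal80 repressor is inactive, so UAS transgenes were on in cells that use the escargot driver. The SvbRep flies carried UAS-Svb3Kmut::GFP, a GFP-tagged mutant form that the sample name calls a repressor. The RNAiSvb flies carried UAS-SvbRNAi, a hairpin line from the Vienna stock centre. The 3 Ctrl libraries, used here to place the other groups, came from the driver stock crossed to Canton-S, with no UAS transgene beyond the reporter. The remaining 3 libraries came from an activator form. They and the Ctrl libraries also entered the filter on low counts, the scaling of libraries and the shared estimate of spread.

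Enteroblasts arise from intestinal stem cells after Notch signalling and mature into the absorptive enterocytes of the gut. Svb is made as a long repressor that is processed into a shorter activator, and it is best known for switching on the genes that shape epidermal trichomes in the embryo. A constitutive repressor keeps the DNA-binding domain and can occupy targets of the endogenous protein, whereas a hairpin removes transcript. Both are usually treated as loss-of-function tools for Svb activity.

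Several features limit the groups as models. Cells were collected by strong GFP signal and large size from pooled midguts, and the SvbRep protein is itself tagged with GFP. The hairpin, the repressor transgene and the wild-type control came from different stocks. Effects of the tag, the gate and the genetic background therefore cannot be told apart from those of the genotype. The driver marks stem cells as well as enteroblasts, so the size gate is what separated them. In bulk RNA, fewer cells of a type and less RNA per cell cannot be told apart.

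Library totals ran from 2186283 to 7444253 counts in SvbRep, from 3110008 to 6205288 under the RNAiSvb label and from 3853072 to 7114312 in Ctrl. SvbRep replicate 3 was the shallowest and stood apart. Its rank correlations with SvbRep replicates 1 and 2 were 0.921 and 0.941, against 0.972 between those replicates and 0.965 to 0.971 among the libraries labelled RNAiSvb. Between the groups, SvbRep replicate 1 correlated at 0.934, 0.939 and 0.934 with the libraries labelled RNAiSvb, above its 0.921 with SvbRep replicate 3. SvbRep replicate 2 correlated with them at 0.93, 0.939 and 0.917, and SvbRep replicate 3 at 0.89, 0.901 and 0.878. SvbRep replicate 3 had no counts for 1013 of the 8802 genes in the table. Replicates were prepared on different days per the study's design text, but nothing states that a replicate number names the same day in each group. Levels are given as CPM, counts scaled to a common library size with TMM, which are not corrected for gene length and are compared only within a gene.

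The targeted gene was read first. ovo (FBgn0003028, chromosome X, 5048273 to 5070929, plus strand of BDGP6.54) had 1111, 1438 and 1751 CPM in SvbRep. Its level was 61.1, 20.7 and 15.4 CPM under the RNAiSvb label and 2.25, 16.3 and 0.279 CPM in Ctrl. All SvbRep libraries lay far above the others, and the log2 fold change of SvbRep over RNAiSvb was 5.50 ± 0.88 (SE; adjusted p 0.00303, edgeR quasi-likelihood test with Benjamini-Hochberg adjustment over all tested genes). ovo reads were not lower under the RNAiSvb label than in Ctrl (log2 fold change 2.16, adjusted p 0.179), so the label is used here as a name and not as proof of reduced transcript. Reads from the transgene, the hairpin and the endogenous gene were not separable in gene-level counts.

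Of 8069 genes tested, 702 differed between SvbRep and RNAiSvb at an adjusted p under 0.05, which is 8.70% of those tested. In SvbRep 458 of them were higher (5.68% of tested genes) and 244 were lower (3.02%), so 65.2% of the calls were higher. At an unadjusted p under 0.05 there were 1734 genes. For 689 of the 702 the libraries of the groups did not overlap in CPM, against 27.1% of all tested genes. The larger differences were mostly increases, with 184 of the 241 genes past 4-fold higher in SvbRep and 57 lower, while 190 called genes differed by less than 2-fold. The median absolute log2 fold change was 1.42 among called genes and 0.42 over all tested genes, and the median signed value over all tested genes was -0.024. The common biological coefficient of variation was 34.6%.

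A gene that missed the threshold was not thereby shown to be alike in the groups. The 95% interval of the log2 fold change lay wholly within 1 of 0 for 2862 genes, or 35.5% of those tested. For 4517 genes, 56% of those tested, the test gave no call but the interval reached past a 2-fold difference. The calls also depended on single libraries. Leaving out RNAiSvb replicate 1 gave 452 calls and leaving out RNAiSvb replicate 3 gave 407, whereas leaving out SvbRep replicate 3 gave 610, 419 of them higher and 191 lower. Among chromosome arms the share of genes called ran from 5.97% on chromosome 4 to 9.41% on 2R.

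**Figure D1:**
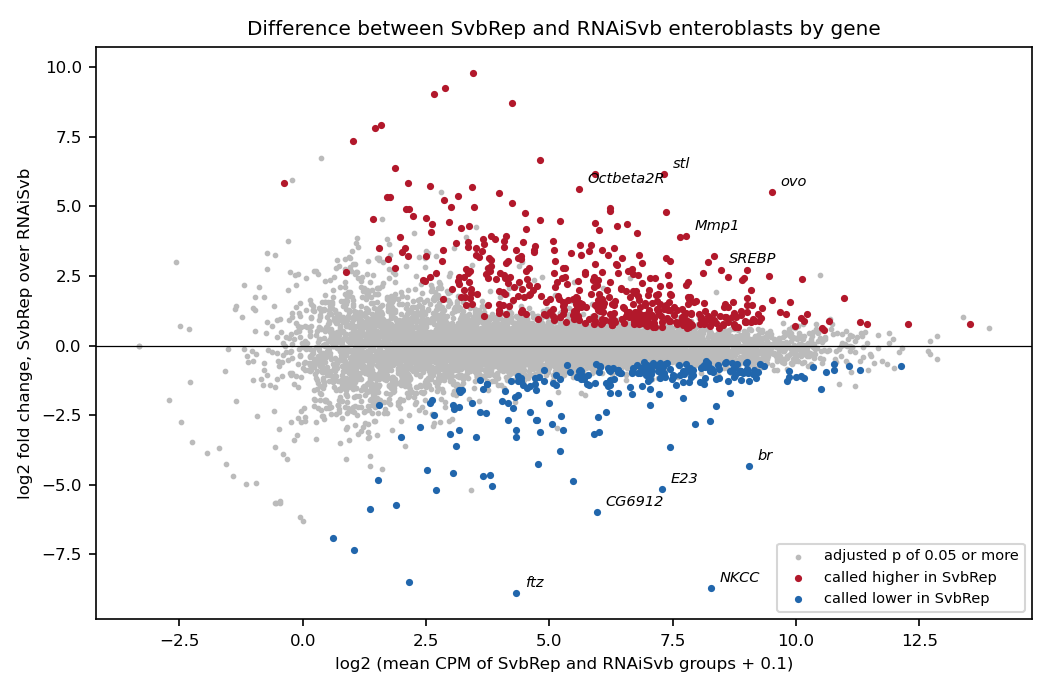
Log2 fold change of SvbRep over RNAiSvb (y axis) against the log2 of the mean CPM of the groups plus 0.1 (x axis), with 1 point per tested gene. Red points are the 458 genes called higher in SvbRep, blue points the 244 called lower, and grey points the genes with an adjusted p of 0.05 or more. Red points outnumber blue ones at large differences, and NKCC and ftz lie lowest among the labelled genes.

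The genes with the largest increases in SvbRep over RNAiSvb were a mixture of secreted enzymes, receptors and unnamed genes. stl, stall (FBgn0086408, 2R, 22807860 to 22815993), encodes a secreted metalloprotease of the ADAMTS class. It had 153, 241 and 554 CPM in SvbRep, against 4.39, 1.80 and 6.83 CPM under the RNAiSvb label and 274, 231 and 570 CPM in Ctrl. SvbRep and Ctrl libraries covered about the same range and the libraries labelled RNAiSvb lay well below both. The log2 fold change of SvbRep over RNAiSvb was 6.17 ± 0.75 (SE, adjusted p 0.000357).

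Octbeta2R (FBgn0038063, 3R, 12550625 to 12595725), a receptor for octopamine, the insect counterpart of noradrenaline, behaved in the same way with little spread. Its level was 101, 85.5 and 99.5 CPM in SvbRep, 2.82, 1.31 and 1.91 CPM under the RNAiSvb label, and 112, 85.5 and 131 CPM in Ctrl. The log2 fold change of SvbRep over RNAiSvb was 5.62 ± 0.38 (SE, adjusted p 1.17e-07). Pkg21D, a cGMP-dependent protein kinase, had 70.9, 118 and 247 CPM in SvbRep, against 7.52, 1.48 and 5.88 CPM under the RNAiSvb label and 130, 134 and 184 CPM in Ctrl. Its log2 fold change was 4.93 ± 0.60 (adjusted p 0.000224), and its exons share 2242 bases with those of CG3544 on the other strand. Whether strand was used in counting is not given in the sources used here, so reads of such overlapping genes may be mixed.

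CG15186 had 166, 134 and 60.2 CPM in SvbRep and 2.82, 0.328 and 2.22 CPM under the RNAiSvb label (log2 fold change 6.16 ± 0.60, adjusted p 1.21e-05). alpha-Est1, a carboxylesterase, and Mal-A6, a maltase that splits sugars in the gut lumen, had log2 fold changes of 5.13 ± 0.83 and 4.82 ± 0.71. In each of these genes every SvbRep library was above every library labelled RNAiSvb, but the rule that picked the largest differences required this. CG17145 had 7.44, 26.3 and 133 CPM in SvbRep and 0, 0 and 1.27 CPM under the RNAiSvb label. Its log2 fold change was 6.67 ± 1.41 (adjusted p 0.0151), and the call was lost when any 1 of the libraries labelled RNAiSvb was left out.

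Among the largest increases, NtR stood above Ctrl as well, as ovo did. NtR, a member of the ligand-gated ion channel family, had 21.6, 51.1 and 20.1 CPM in SvbRep, against 0, 1.15 and 0.635 CPM under the RNAiSvb label and 0.998, 2.51 and 1.95 CPM in Ctrl. Here SvbRep stood apart from both other groups, with a log2 fold change of 5.49 ± 0.84 over RNAiSvb (adjusted p 0.000322) and 4.04 over Ctrl (adjusted p 0.0078). CG9815 had 15.3, 42.4 and 5.60 CPM in SvbRep, 1.25, 0.328 and 0.635 CPM under the RNAiSvb label and 5.24, 7.12 and 1.40 CPM in Ctrl (log2 fold change over RNAiSvb 4.96 ± 0.91, adjusted p 0.00245). Its difference from Ctrl did not pass the test, which did not use the replicate numbers (log2 fold change 2.19, adjusted p 0.181).

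Among decreases, NKCC and ftz differed most. NKCC (FBgn0051547, 3R, 5489505 to 5502702) encodes a cotransporter that brings sodium, potassium and chloride into cells. It had 1.52, 0.758 and 3.27 CPM in SvbRep, against 670, 653 and 537 CPM in the libraries labelled RNAiSvb and 3.49, 2.65 and 1.95 CPM in Ctrl. Of these groups the RNAiSvb label alone was high, with a log2 fold change of SvbRep over RNAiSvb of -8.70 ± 0.72 (SE, adjusted p 1.18e-05). ftz (FBgn0001077, 3R, 6864324 to 6866244), a homeobox gene of embryonic segmentation, had 0.152, 0 and 0 CPM in SvbRep, 41.1, 28.2 and 50.7 CPM under the RNAiSvb label and 1.75, 0.279 and 1.12 CPM in Ctrl. Only 1 ftz read was counted over the SvbRep libraries, so the ratio of RNAiSvb over SvbRep, 664, carries a 95% counting interval of 119 to 26279.

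Other decreases also had Ctrl near SvbRep. br, broad, a zinc finger factor of the ecdysone response, had 39.3, 70.5 and 38.8 CPM in SvbRep, 1120, 766 and 1120 CPM under the RNAiSvb label and 115, 63.4 and 63.9 CPM in Ctrl. The log2 fold change was -4.32 ± 0.41 (adjusted p 1.17e-05), and the lack of overlap between the groups compared was again required by the rule. Ir40a, an ionotropic receptor of sensory neurons, had 0.607, 1.39 and 0 CPM in SvbRep, 27.0, 24.3 and 31.5 CPM under the RNAiSvb label and 1.25, 2.65 and 3.07 CPM in Ctrl (log2 fold change -5.03 ± 0.61). rdo had 1.37, 0.758 and 0.934 CPM in SvbRep, 21.3, 13.8 and 44.0 CPM under the RNAiSvb label and 0.998, 0.279 and 0.558 CPM in Ctrl (log2 fold change -4.65 ± 0.84).

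A second kind of decrease was low in SvbRep alone. E23 (FBgn0020445, 2L, 3334875 to 3354829), an ABC transporter induced early by ecdysone, had 11.1, 7.20 and 6.54 CPM in SvbRep, against 302, 247 and 364 CPM under the RNAiSvb label and 286, 178 and 272 CPM in Ctrl. Its log2 fold change was -5.16 ± 0.30 over RNAiSvb (adjusted p 2.41e-08) and -4.85 over Ctrl (adjusted p 5.51e-08), whereas RNAiSvb over Ctrl was 0.31 (adjusted p 0.557). CG6912 had 1.37, 3.03 and 0.467 CPM in SvbRep, 181, 95.9 and 91.8 CPM under the RNAiSvb label and 157, 82.2 and 87.1 CPM in Ctrl. So RNAiSvb and Ctrl libraries covered like ranges and SvbRep was lower than both (log2 fold change over RNAiSvb -5.98 ± 0.72, adjusted p 0.000182).

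CG6912 lies in a cluster on 3R with CG3984 and asRNA:CR45600, whose exons overlap each other. CG3984 (15137148 to 15139007) had 1.52, 0.758 and 0 CPM in SvbRep, 34.5, 17.9 and 20.0 CPM under the RNAiSvb label and 43.7, 20.7 and 17.9 CPM in Ctrl. asRNA:CR45600 (15136985 to 15140121) had 4.25, 2.27 and 1.87 CPM in SvbRep, 93.7, 59.0 and 104 CPM under the RNAiSvb label and 69.9, 77.2 and 82.3 CPM in Ctrl. CG6912, CG3984 and asRNA:CR45600 were thus low in all SvbRep libraries and near the Ctrl level under the RNAiSvb label. CG3987, which shares 104 exon bases with asRNA:CR45600 and is named after its values were seen, went the other way. It had 266, 210 and 142 CPM in SvbRep, 21.0, 10.3 and 6.99 CPM under the RNAiSvb label and 26.5, 33.1 and 21.2 CPM in Ctrl (log2 fold change over RNAiSvb 4.06 ± 0.37, adjusted p 2.03e-06). Since 1731 exon bases are common to CG3984 and asRNA:CR45600 on opposite strands, and strand use is not given, their counts may not be independent.

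**Figure D2:**
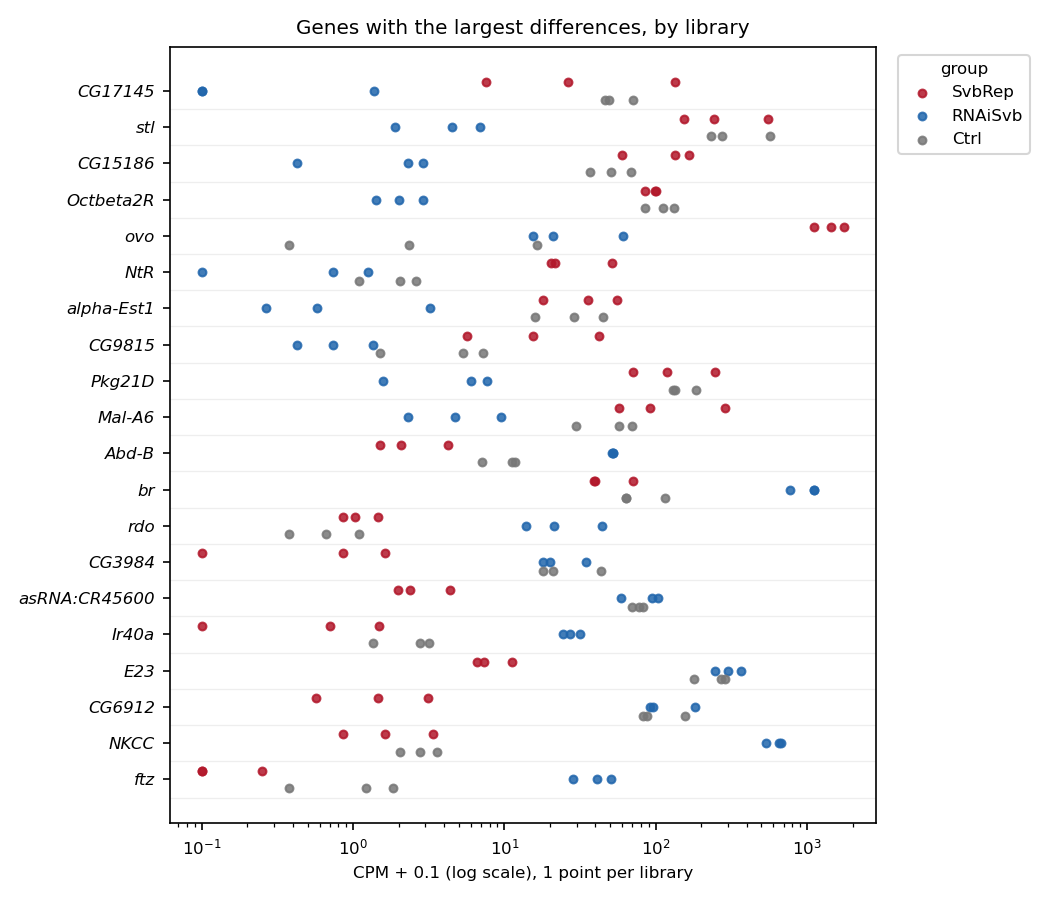
CPM plus 0.1 on a log scale (x axis) of the 10 genes with the largest increase and the 10 with the largest decrease in SvbRep over RNAiSvb, 1 point per library, with SvbRep in red, RNAiSvb in blue and Ctrl in grey. Ctrl points lie beside the red SvbRep points at stl, Octbeta2R and Pkg21D, whereas CG6912, E23, CG3984 and asRNA:CR45600 have Ctrl beside the blue points.

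Against Ctrl, SvbRep gave 168 calls (2.08% of tested genes), 59 higher (0.731%) and 109 lower (1.35%), and RNAiSvb gave 686 (8.50%), 149 higher (1.85%) and 537 lower (6.66%). With the replicate number as a block SvbRep over Ctrl gave 290 calls, 104 higher and 186 lower. RNAiSvb over Ctrl gave 864 calls with this block, 228 higher and 636 lower. These comparisons share their Ctrl libraries, and each shares a group with the comparison above. Fold changes and p-values of single genes against Ctrl come from the fit without the block. To place Ctrl for each gene, its mean log2 CPM was set on the line through the SvbRep and RNAiSvb means, where it could lie beyond either. Of the 458 genes higher in SvbRep, Ctrl was nearer to SvbRep for 378 (82.5%). Ctrl lay above both means for 175 of the 458, between them for 268 and below both for 15. Of the 244 genes lower in SvbRep, it was nearer to SvbRep for 124 (50.8%) and nearer to RNAiSvb for 120. Over all tested genes the share nearer to SvbRep was 55%.

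The same split appears with a fixed distance. Among genes higher in SvbRep, Ctrl lay within 1 on the log2 scale of SvbRep only for 252 genes and of RNAiSvb only for 40. Among genes lower in SvbRep these numbers were 41 and 36, and over all 8069 tested genes 828 and 561. Genes higher in SvbRep thus mostly had Ctrl on the SvbRep side. Genes lower in SvbRep had no such lean, and most of them fell under neither number. Ctrl lay between the group means for 199 of these 244 genes, above both for 21 and below both for 24. Over all 8069 tested genes Ctrl lay between the means for 3219, above both for 2566 and below both for 2284. These counts are a description with no test.

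**Figure D3:**
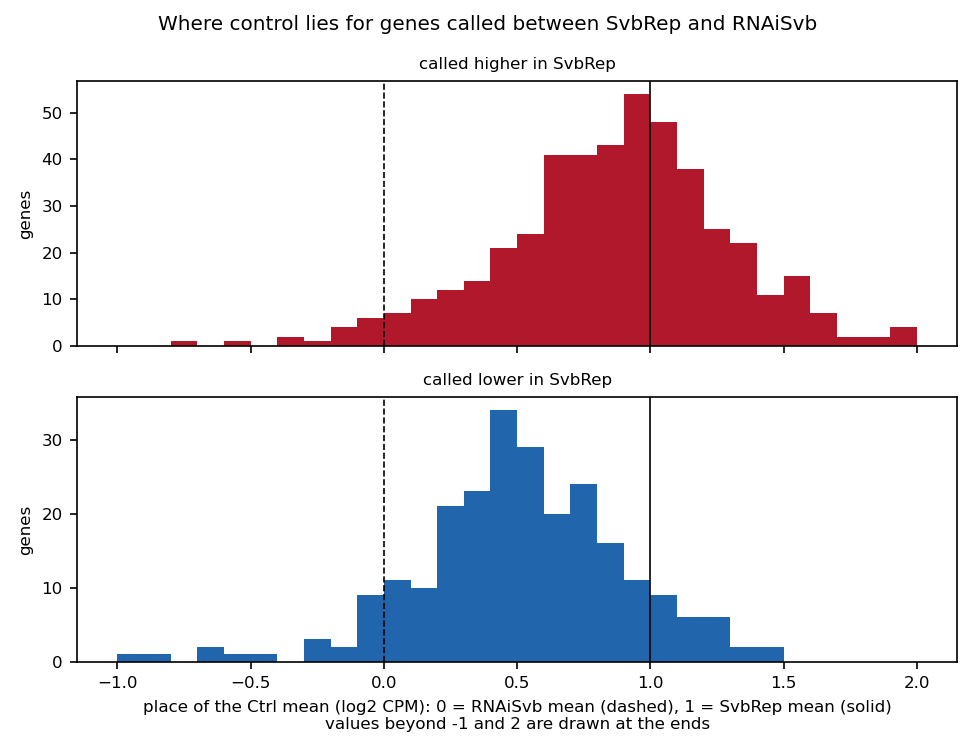
Number of genes (y axis) by the place of the Ctrl mean on the line from the RNAiSvb mean, at 0 on the x axis, to the SvbRep mean, at 1, in log2 CPM; the upper panel holds the 458 genes called higher in SvbRep and the lower panel the 244 called lower. The upper panel peaks near 1 and the lower one near the middle, between the groups.

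A rule on opposite responses took up to 5 genes with calls against Ctrl in opposite directions in SvbRep and RNAiSvb, and a call between these groups. acs and CG1998 had no reads in any library labelled RNAiSvb. acs had 10.8, 17.7 and 36.0 CPM in SvbRep, 0 CPM under the RNAiSvb label and 0.499, 1.12 and 1.67 CPM in Ctrl, and was at least 33.7-fold higher in SvbRep than the level of 3 counts per library under the RNAiSvb label. CG1998 had 9.57, 11.2 and 16.8 CPM in SvbRep, 0 CPM under the RNAiSvb label and 1.25, 0.838 and 1.95 CPM in Ctrl, and was at least 19.7-fold higher than that level. These floors cover counting error only.

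CG43078 and M7BP had the same order at higher depth, SvbRep above Ctrl above RNAiSvb. CG43078 had 120, 174 and 251 CPM in SvbRep, 15.7, 4.26 and 7.31 CPM under the RNAiSvb label and 46.7, 52.5 and 77.6 CPM in Ctrl. M7BP, which encodes a partner of myosin VIIa, had 32.2, 38.4 and 27.1 CPM in SvbRep, 2.19, 2.29 and 1.91 CPM under the RNAiSvb label and 6.74, 11.0 and 14.2 CPM in Ctrl. Both differed between SvbRep and RNAiSvb with log2 fold changes of 4.38 ± 0.42 and 3.93 ± 0.43. Abd-B, the posterior Hox gene, had the reverse order, with 1.97, 4.17 and 1.40 CPM in SvbRep, 52.3, 51.1 and 51.8 CPM under the RNAiSvb label and 11.2, 6.98 and 11.7 CPM in Ctrl. Its log2 fold change was -4.24 ± 0.48 over RNAiSvb (adjusted p 1.54e-05) and -1.86 over Ctrl (adjusted p 0.0429).

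Genes that moved to the same side of Ctrl in both groups show how close the groups could be. Pde11, a phosphodiesterase of cyclic nucleotides, had 318, 313 and 306 CPM in SvbRep and 315, 313 and 320 CPM under the RNAiSvb label, against 537, 437 and 558 CPM in Ctrl. Its log2 fold change of SvbRep over RNAiSvb was -0.02, with a 95% interval of -0.36 to 0.33. FER, a non-receptor tyrosine kinase, and Lrch, a leucine-rich repeat protein, were also below Ctrl, with intervals of -0.38 to 0.35 and -0.19 to 0.53 between the groups. cv-2, a secreted protein that binds BMP ligands, had 162, 173 and 177 CPM in SvbRep, 141, 145 and 192 CPM under the RNAiSvb label and 101, 82.9 and 88.2 CPM in Ctrl. The interval for cv-2 was -0.27 to 0.47 and that for CG15784, also above Ctrl in both groups, was -0.64 to 0.11. These genes were picked for the smallest standard errors among those with no call between the groups, so their closeness is partly built into the rule.

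The 34 gene lists are described by counts and medians only. Cell type markers come first. Of 8 progenitor markers tested, Sox100B, a transcription factor of intestinal progenitors, was called, higher in SvbRep. That is 12.5% of those markers, against 8.70% of all tested genes. Sox100B had 496, 530 and 562 CPM in SvbRep and 373, 339 and 280 CPM under the RNAiSvb label (log2 fold change 0.68 ± 0.19, adjusted p 0.0314), and the call was lost under 7 alternatives. The summed level of the progenitor list overlapped between the groups, at 7367 to 9079 CPM in SvbRep and 6502 to 7814 CPM under the RNAiSvb label, against 8311 to 10406 CPM in Ctrl. Delta, the Notch ligand that marks stem cells, had 809, 619 and 232 CPM in SvbRep, 376, 354 and 297 CPM under the RNAiSvb label and 149, 164 and 47.4 CPM in Ctrl. Its groups overlapped (adjusted p 0.433). The escargot gene, which names the driver, was not matched to a row of the table and is not reported here.

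Of 5 enterocyte markers tested, 2 were higher in SvbRep and none was lower (40.0% called, against 8.70% of all tested genes). Myo31DF, an unconventional myosin of the enterocyte brush border, had 664, 800 and 892 CPM in SvbRep, 230, 267 and 226 CPM under the RNAiSvb label and 488, 536 and 627 CPM in Ctrl. The groups did not overlap (log2 fold change 1.70 ± 0.20, adjusted p 1.94e-05). Myo61F, another brush border myosin, was the other call at 1.20 ± 0.34 (adjusted p 0.0384), lost under 6 alternatives. The summed enterocyte level was 1138 to 1312 CPM in SvbRep, 457 to 588 CPM under the RNAiSvb label and 890 to 1065 CPM in Ctrl. nub, a POU factor needed in enterocytes, had 22.6, 15.8 and 6.07 CPM in SvbRep and 17.6, 33.6 and 3.02 CPM under the RNAiSvb label, with overlapping groups. Of 33 digestive enzymes tested only Mal-A6 was called (3.03%, against 8.70% of all tested genes).

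Other cell types were also measurable. None of 17 enteroendocrine markers tested was called, and their median log2 fold change was -1.40, with 14 of 17 below 0. Their summed level was 563 to 1214 CPM in SvbRep, 1413 to 1795 CPM under the RNAiSvb label and 800 to 1002 CPM in Ctrl, with Mip and tap at 0 in both groups compared. pros, the factor that defines enteroendocrine cells, had 6.53, 3.28 and 4.20 CPM in SvbRep and 29.2, 11.5 and 16.4 CPM under the RNAiSvb label (adjusted p 0.0558). With the replicate block or DESeq2, 3 enteroendocrine markers were called lower. Visceral muscle markers, 17 in the table, summed to 1439 to 2208 CPM in SvbRep and 1294 to 1395 CPM under the RNAiSvb label, with 0 of 12 called. In Ctrl they summed to 2321 to 2848 CPM, above both groups. Mhc, the muscle myosin, was at most 3.44 CPM in the 6 libraries compared, against 6.99, 19.8 and 7.81 CPM in Ctrl.

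Haemocyte markers summed to 294 to 532 CPM in SvbRep, 111 to 132 CPM under the RNAiSvb label and 376 to 634 CPM in Ctrl, and Hml was at 0. The scavenger receptor gene crq made up most of this sum, with 282, 272 and 516 CPM in SvbRep and 78.7, 74.4 and 86.1 CPM under the RNAiSvb label (log2 fold change 2.16 ± 0.27, adjusted p 3.78e-05). Of the 5 haemocyte markers in the table, 4 were tested and only crq was called (25.0%, against 8.70% of all tested genes). The other tested markers, srp, Ppn and Sr-CI, had log2 fold changes of -1.05, -0.58 and -0.26, so the list's median was -0.42. Trachea markers were low throughout, at 8.4 to 25.3 CPM in SvbRep, 25.1 to 79.7 CPM under the RNAiSvb label and 26.5 to 72.2 CPM in Ctrl. These sums rest on few members. In the enteroendocrine list ITP averaged 276 ± 130 CPM in SvbRep and 545 ± 12 CPM under the RNAiSvb label, and unc-13 averaged 560 ± 208 CPM in SvbRep and 906 ± 166 CPM under the RNAiSvb label. In the muscle list Tm1 averaged 1235 ± 337 CPM in SvbRep and 792 ± 4.69 CPM under the RNAiSvb label (SD, n = 3 each). ITP, unc-13 and Tm1 were not called. The part of these markers in the results that follow was not tested.

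Lipid genes were called in 1 direction. Of 18 tested, 7 were higher in SvbRep and 0 lower (38.9% called, against 8.70% of all tested genes), with a median log2 fold change of 0.60. SREBP, the transcription factor that drives fatty acid synthesis genes in the fly, had 413, 633 and 810 CPM in SvbRep, 118, 103 and 59.4 CPM under the RNAiSvb label and 570, 611 and 710 CPM in Ctrl. The groups compared did not overlap, and the log2 fold change was 2.73 ± 0.28 (adjusted p 7.34e-06). FASN1, fatty acid synthase, had 490, 967 and 1025 CPM in SvbRep, 207, 160 and 95.8 CPM under the RNAiSvb label and 651, 779 and 666 CPM in Ctrl (log2 fold change 2.42 ± 0.29). ACC, the carboxylase that supplies its substrate, was at 1.48 ± 0.29.

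The lipid calls were not all synthetic enzymes. bmm, the main lipase of lipid droplets, had 195, 180 and 445 CPM in SvbRep and 100, 63.4 and 70.4 CPM under the RNAiSvb label (log2 fold change 1.81 ± 0.36, adjusted p 0.00468). Npc1a and Npc2a, which move sterol out of lysosomes, were at 0.64 ± 0.18 and 1.78 ± 0.35. Lip4, a lipase, rested on 5 reads in all under the RNAiSvb label, and its call was lost under 6 alternatives. Over the alternatives 5 to 9 lipid genes were called, all of them higher, and without SvbRep replicate 3 there were 6. SREBP, FASN1, bmm, ACC and Npc2a had SvbRep means close to those of Ctrl, as the plot of called list members shows.

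Matrix and integrin genes had the same pattern, with 7 of 20 tested higher in SvbRep, 0 lower and a median of 0.40. Calls made up 35.0% of those tested, against 8.70% of all tested genes. stl is described above. Mmp1, a secreted matrix metalloproteinase, had 369, 505 and 360 CPM in SvbRep, 30.4, 30.3 and 20.7 CPM under the RNAiSvb label and 333, 260 and 378 CPM in Ctrl. SvbRep and Ctrl lay together, well above every library labelled RNAiSvb, with a log2 fold change of 3.93 ± 0.30 (adjusted p 3.27e-07). Mmp2, the membrane-bound enzyme, had 31.0, 66.4 and 16.3 CPM in SvbRep and 18.2, 9.34 and 5.08 CPM under the RNAiSvb label, so its libraries overlapped (1.85 ± 0.51, adjusted p 0.0314), and its call was lost under 5 alternatives. Timp, the inhibitor of these enzymes, was higher by 0.76 ± 0.20 on the log2 scale.

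Of adhesion receptors, Itgbn and ItgaPS4, a beta and an alpha integrin subunit, had log2 fold changes of 1.60 ± 0.19 and 1.77 ± 0.49, the call at ItgaPS4 being lost under 6 alternatives. Itgbn averaged 218 ± 28.9 CPM in SvbRep, 71.7 ± 12.3 CPM under the RNAiSvb label and 232 ± 23.9 CPM in Ctrl (SD, n = 3 each). LanB2, a laminin chain of basement membranes, averaged 241 ± 36.6 CPM in SvbRep, 88.8 ± 20.1 CPM under the RNAiSvb label and 394 ± 68.1 CPM in Ctrl. Between 4 and 8 list members were called over the alternatives, none of them lower. Muscle and haemocytes also make matrix proteins, and their marker sums are given above.

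Epithelial polarity genes were mostly not called, with 2 of 29 higher and 1 lower (10.3%, near the 8.70% of all tested genes). crb, Crumbs, the apical membrane determinant, had 94.0, 148 and 102 CPM in SvbRep, 22.9, 16.9 and 16.2 CPM under the RNAiSvb label and 150, 100 and 170 CPM in Ctrl. Its log2 fold change was 2.63 ± 0.26 (adjusted p 3.90e-06), with no overlap between the groups compared. vari, Varicose, a septate junction scaffold, was higher by 3.43 ± 0.42. sdt, Stardust, which binds Crumbs, went the other way, with 6.38, 6.69 and 0 CPM in SvbRep and 46.4, 33.8 and 14 CPM under the RNAiSvb label (-2.69 ± 0.73, adjusted p 0.0344), and its call was lost under 5 alternatives.

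**Figure D4:**
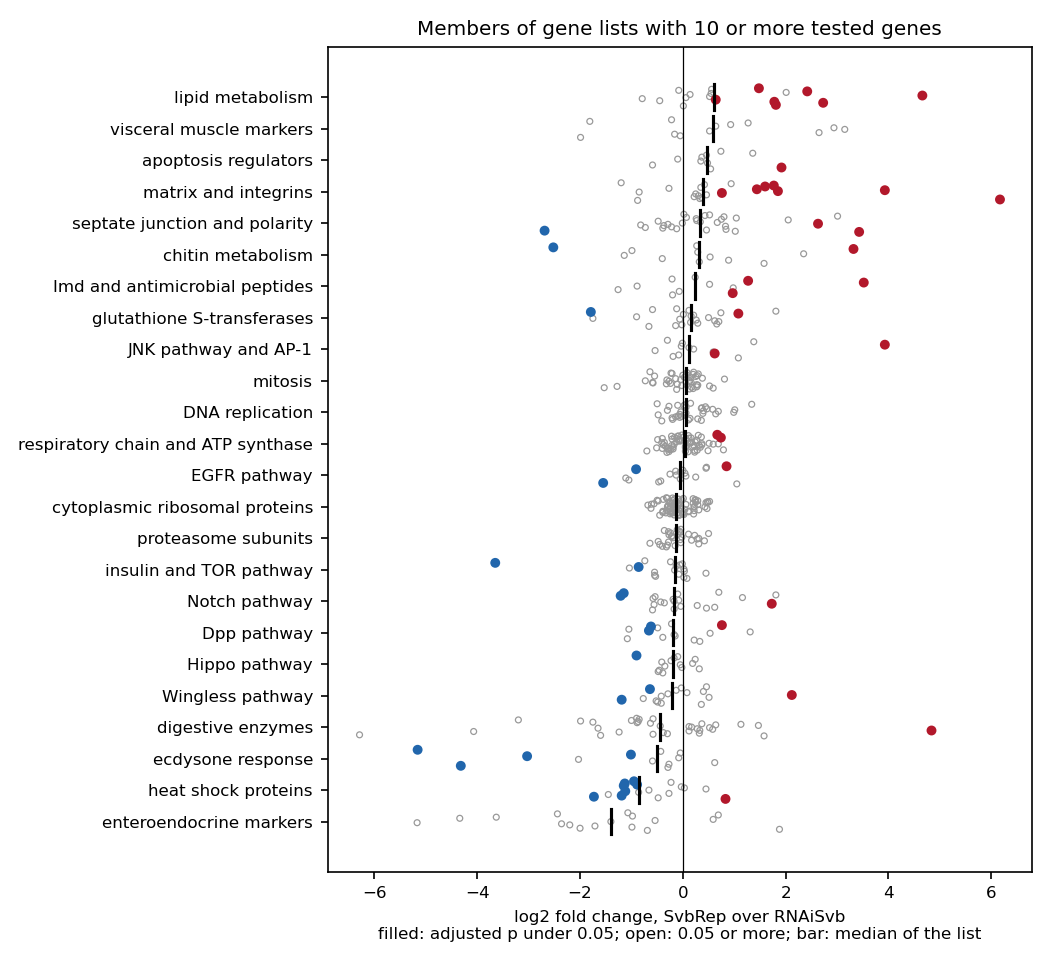
Log2 fold change of SvbRep over RNAiSvb (x axis) for members of each gene list with 10 or more tested genes (y axis), ordered by median. Filled points have an adjusted p under 0.05 (red higher, blue lower in SvbRep), open points do not, and the bar is the list's median. Lipid and matrix lists hold filled red points only, the ecdysone list filled blue points only.

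Of 12 ecdysone response genes tested 33.3% were called, against 8.70% of all tested genes. The calls were 4, all lower in SvbRep, and the median was -0.51. Besides E23 and br, these were Eip78C and Eip75B, nuclear receptors induced by the hormone. Eip78C had 2.89, 1.01 and 1.87 CPM in SvbRep, 24.1, 9.01 and 14.5 CPM under the RNAiSvb label and 6.99, 4.33 and 7.26 CPM in Ctrl (-3.03 ± 0.56, adjusted p 0.00167). Eip75B had 419, 366 and 319 CPM in SvbRep, 921, 561 and 741 CPM under the RNAiSvb label and 734, 567 and 540 CPM in Ctrl (-1.01 ± 0.21, adjusted p 0.00531). Ctrl thus lay beside RNAiSvb at E23, beside SvbRep at br and between them at Eip78C. The number called over the alternatives was 3 to 5, all lower.

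Heat shock proteins, chaperones made at raised temperature, had the highest share of calls among the 34 lists with 10 or more members. It was 47.1%, against 8.70% of all tested genes, with 7 of 17 lower in SvbRep, 1 higher and a median of -0.86. Hsp70Bc had 69.5, 81.3 and 56.5 CPM in SvbRep, 234, 163 and 293 CPM under the RNAiSvb label and 79.9, 91.9 and 109 CPM in Ctrl (-1.73 ± 0.30, adjusted p 0.00113). Hsp70 genes are near-identical copies, so the split of reads among them is uncertain. Hsp23, a small chaperone, had 638, 603 and 496 CPM in SvbRep and 1191, 917 and 1701 CPM under the RNAiSvb label (-1.13 ± 0.24, adjusted p 0.00571). stv, a co-chaperone, was higher by 0.83 ± 0.21 on the log2 scale. These counts varied with the setting, from 1 to 10 calls, and without SvbRep replicate 3 there were 4 lower and 1 higher.

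**Figure D5:**
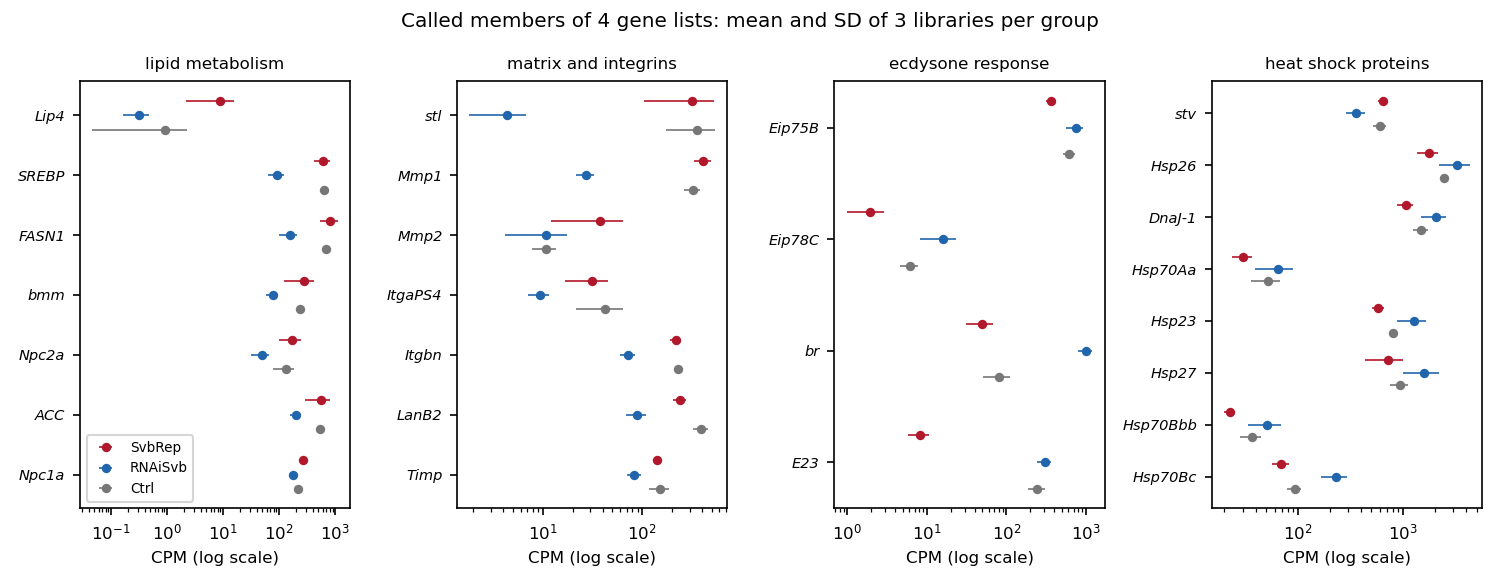
Mean CPM with SD over 3 libraries on a log scale (x axis) for the called members of the lipid, matrix, ecdysone and heat shock lists (y axis), with SvbRep above RNAiSvb and Ctrl in each row. An SD larger than its mean is cut short at its lower end. At SREBP, FASN1 and Mmp1 the SvbRep and Ctrl points lie together, and at E23 the RNAiSvb and Ctrl points do.

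Signalling pathways held 1 to 3 called members each, from 7.14% of tested members in the Hippo list to 21.4% in the Dpp list, against 8.70% of all tested genes. In the Notch pathway fng, a sugar transferase that modifies Notch, was higher in SvbRep at 1.73 ± 0.25 (adjusted p 0.000162). The Notch targets E(spl)m3-HLH and E(spl)malpha-BFM were lower at -1.15 ± 0.25 and -1.21 ± 0.31. E(spl)m3-HLH had 261, 214 and 167 CPM in SvbRep, 445, 319 and 663 CPM under the RNAiSvb label and 461, 359 and 382 CPM in Ctrl. In the EGFR pathway 2 feedback inhibitors were called lower, sty at -1.55 ± 0.29 and Mkp3 at -0.91 ± 0.26. In the same list aos, at -0.13 ± 0.32, and kek1, at -1.11 ± 0.91, were not called. The ubiquitin ligase Cbl was higher at 0.85 ± 0.19. sty had 973, 758 and 477 CPM in SvbRep, against 2421, 1297 and 2734 CPM under the RNAiSvb label, with no overlap. Calls were lost under 6 alternatives at Mkp3, under 4 at E(spl)malpha-BFM and under 2 at E(spl)m3-HLH. No pathway list had more than 3 of its members called here, and up to 5 under an alternative.

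For Wingless the receptor fz was higher (2.12 ± 0.45) and the inhibitors nkd (-1.19 ± 0.21) and Axn (-0.64 ± 0.18) were lower. For Dpp the effector Mad was higher (0.76 ± 0.23), and Smox, the effector of activin signalling (-0.62 ± 0.17), and the proteoglycan dally (-0.66 ± 0.19) were lower. The calls at Mad, dally, Axn and Smox were near the threshold, whereas those at fz and nkd were kept under all alternatives. Mad (adjusted p 0.0496) lost its call under 9 alternatives, dally under 8, Axn under 7 and Smox under 5, and an alternative left no call in the Dpp list. In the insulin pathway ImpL2, a secreted antagonist that binds insulin-like peptides, had 41.6, 27.4 and 4.20 CPM in SvbRep, 189, 425 and 352 CPM under the RNAiSvb label and 8.24, 22.5 and 2.23 CPM in Ctrl. The libraries labelled RNAiSvb were the high ones (-3.65 ± 0.87, adjusted p 0.0282), although this call was lost under 6 alternatives and 1651 exon bases are shared with CG46460 on the same strand. Pi3K92E, the kinase subunit, was lower at -0.86 ± 0.17. Single calls were made for upd2 (JAK-STAT, with overlapping libraries), Mer (Hippo) and hid (apoptosis), and for msn beside Mmp1 in the JNK list. The upd2 call was lost under 10 alternatives, among them the replicate block (adjusted p 0.0633). The calls at msn, Mer and hid were lost under 6, 5 and 3 alternatives in that order.

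Among transport genes Ncc69, a relative of NKCC, was higher in SvbRep (1.84 ± 0.41, adjusted p 0.0119), with 145, 270 and 407 CPM, against 85.3, 93.7 and 49.4 CPM under the RNAiSvb label. The call at Ncc69 was lost without SvbRep replicate 3 or without RNAiSvb replicate 3. Of 11 Imd pathway and antimicrobial genes tested 3 were higher and 0 lower (27.3% called, against 8.70% of all tested genes). PGRP-LB, an enzyme that degrades bacterial peptidoglycan, had 216, 140 and 80.8 CPM in SvbRep, 27.9, 10.2 and 2.07 CPM under the RNAiSvb label and 29.0, 44.0 and 15.9 CPM in Ctrl (3.52 ± 0.74, adjusted p 0.0119). PGRP-LA and key, the regulatory subunit of the IkappaB kinase complex, were at 1.27 ± 0.27 and 0.97 ± 0.26. The key call was lost under 7 alternatives, and that at PGRP-LB was lost without RNAiSvb replicate 2 (adjusted p 0.0610).

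The chitin synthase gene Chs2 had 51.0, 67.2 and 117 CPM in SvbRep, 5.33, 7.87 and 9.69 CPM under the RNAiSvb label and 26.5, 10.1 and 31.3 CPM in Ctrl (3.32 ± 0.46, adjusted p 0.000145). Cda5, a chitin deacetylase, was lower (-2.52 ± 0.63), a call lost under 4 alternatives. nAChRalpha4, an acetylcholine receptor subunit, had 33.4, 24 and 35.0 CPM in SvbRep, 4.39, 5.90 and 1.59 CPM under the RNAiSvb label and 2.00, 1.54 and 0.837 CPM in Ctrl (2.96 ± 0.70, adjusted p 0.0123), so SvbRep was the high group. This call was lost without RNAiSvb replicate 1 or without RNAiSvb replicate 3, with an adjusted p of up to 0.0671. Of 7 homeotic genes tested, counting ftz, the calls were ftz and Abd-B, both lower (28.6%, against 8.70% of all tested genes). Of 23 glutathione S-transferases GstE11 was higher and GstD9 lower, 8.70% of the list as of all tested genes, and GstE11 lost its call under 9 alternatives.

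No member was called in 9 of the 34 lists, among them the growth and proliferation lists. None of 36 DNA replication genes, 42 mitosis genes, 78 cytoplasmic ribosomal protein genes or 30 proteasome subunits was called, with medians of 0.06, 0.07, -0.12 and -0.13. The 95% interval lay within 1 of 0 on the log2 scale for 64 of the 78 ribosomal genes and 26 of the 30 proteasome genes, but for only 12 of the 36 replication genes and 14 of the 42 mitosis genes. So most ribosomal and proteasome genes differed by less than 2-fold within their intervals, while most cell cycle genes were not measured that closely. In the respiratory chain 2 of 63 genes were called (3.17%, against 8.70% of all tested genes). Both calls were lost under 9 or more alternatives.

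Of 12 genes listed as Svb targets in the embryonic epidermis, 3 passed the filter on low counts, m, sn and f, and none was called. m, miniature, a zona pellucida protein of the cuticle, averaged 4.69 ± 3.22 CPM in SvbRep, 2.12 ± 3.00 CPM under the RNAiSvb label and 2.54 ± 0.802 CPM in Ctrl. sn, the actin bundler Singed, averaged 11.0 ± 5.43 CPM in SvbRep, 18.0 ± 7.60 CPM under the RNAiSvb label and 12.9 ± 4.38 CPM in Ctrl. Of the 4 Snail family and adhesion switch genes tested, sna averaged 48.0 ± 26.3 CPM in SvbRep, 9.28 ± 10.9 CPM under the RNAiSvb label and 1.82 ± 1.65 CPM in Ctrl, with an adjusted p of 0.197 between the groups.

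The authors' deposited table gives no direct comparison of these groups, but the difference of its fold changes of the activator form over RNAiSvb and over SvbRep is one. That implied value, from the same counts, differed from the fold change fitted here by a median of 0.044 on the log2 scale and had the same sign for 702 of the 702 called genes in the authors' deposited table.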

How the data were processed

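RNA was sequenced as single reads of sorted enteroblasts. FastQC 0.11.5, STAR 2.5.2b, HTSeq 0.6.0, edgeR and the dm6 build are named, without roles, per the submitters' processing notes; strand use is not given in the sources used here. The counts per gene were deposited by the authors as whole numbers for 8802 genes and 12 libraries. The same table holds the authors' log2 fold changes, p-values and a call score of 1, 0 or -1 per comparison. Only the counts entered the fits. The authors' deposited fold changes were used for 1 comparison with the fit, and their deposited p-values and scores only for counting their calls.

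The BDGP6.54 annotation gave symbols, coordinates and the exons that genes share, and 116 gene identifiers had no entry there. The analysis used edgeR 4.0.16 in R 4.3.3. filterByExpr by group kept 8069 genes, libraries were scaled by TMM, and the 12 libraries entered 1 robust quasi-likelihood fit with a mean for each group (glmQLFit, then glmQLFTest). Adjusted p-values are Benjamini-Hochberg over all tested genes, with a threshold of 0.05. The SE is the log2 fold change divided by the square root of F, and intervals use the t distribution with the fit's degrees of freedom. With a group of fewer than 4 reads in all, a ratio of counts with its interval or a bound from a floor of 3 counts per library is given, covering counting error only. Log2 CPM used a prior count of 2. The scripts were checked on simulated counts with known fold changes.

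The named genes were ovo, up to 10 of the largest increases and of the largest decreases (called, mean log2 CPM of at least 2, no overlap), up to 5 with opposite and up to 5 with the same response against Ctrl, up to 4 called members of each list and 6 defining markers. Other list members given with values were picked after their values were seen. The comparison, its members and the lists were chosen with earlier results of these data known. Deviations of same-numbered libraries from their group means correlated at 0.175, 0.108 and 0.256 between SvbRep and Ctrl. Between RNAiSvb and Ctrl they correlated at 0.232, 0.148 and 0.062. In both comparisons each library correlated best with its own number. The numbers were therefore taken to pair each group with Ctrl, and the blocked counts of calls are printed beside the results. Values of single genes against Ctrl, and the choice of genes with opposite or same responses, come from the fit without the block. How they change with the block is not reported. Alternatives were DESeq2 size factors, DESeq2 1.42.0, no filter, only the groups compared, a replicate block, a gene length offset, a threshold of 1.5-fold, thinning and each replicate left out. Promoter sequences were not analysed here.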

Additional observations from a re-analysis of the deposited data

How the results depend on the processing

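For SvbRep over RNAiSvb the 702 calls became 324 with a threshold of 1.5-fold (glmTreat) and ran from 407 to 904 when each replicate was left out; the numbers under other settings stayed within 1.5 times, from 542 with only the groups compared to 977 with the DESeq2 Wald test. With the replicate number as a block there were 956 calls, 565 higher and 391 lower, of which 690 were among the 702. Same-numbered libraries of these groups did not deviate together (r of -0.007, 0.062 and -0.044), and not every library correlated best with its own number. The numbers were therefore not taken to pair these groups with each other, although each group was taken to pair with Ctrl. The share of calls higher in SvbRep, 65.2%, became 71.8% with only the groups compared, 59.1% with the block, 78.7% with the fold threshold and 61.6% to 71% when each replicate was left out. The share of called genes with Ctrl nearer to SvbRep, 71.5%, became 79% with the fold threshold and 70.5% to 76.5% when each replicate was left out.

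For SvbRep over Ctrl the 168 calls became 317 with DESeq2, 290 with the replicate block, 271 with the block and a length offset and 54 with the fold threshold, and ran from 54 without Ctrl replicate 1 to 242 without SvbRep replicate 3. For RNAiSvb over Ctrl the 686 calls became 1091 with only the groups compared, 864 with the replicate block and 324 with the fold threshold. They ran from 407 to 549 when each replicate was left out. No scaling moved the median log2 fold change of all genes by more than 0.1. Of 1484 values of 99 named genes under these settings, 1275 kept their side of the threshold, 186 fell below it, 5 passed it, 18 changed sign near 0 with no call under either setting (Pde11, FER and nub), and 0 called values reversed. Apart from those given above, the cause of these shifts was not tested. The smallest library, with 2186283 counts, limits what can be seen at low levels: there 3 counts correspond to 1.40 CPM.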

Other observations

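4 gene lists were written after the values of this comparison had been seen, so their counts are descriptions of what was noticed. Glycolysis genes were lower in SvbRep, 7 of 12 tested, with none higher, a median of -0.94 and all 12 below 0. That is 58.3% called, against 8.70% of all tested genes, 3.02% being lower and 5.68% higher. Hex-A, the hexokinase that starts the pathway, had 199, 149 and 118 CPM in SvbRep, 418, 328 and 479 CPM under the RNAiSvb label and 263, 263 and 243 CPM in Ctrl (log2 fold change -1.39 ± 0.23, adjusted p 0.000559, edgeR). Gapdh2 had 161, 167 and 361 CPM in SvbRep, 561, 566 and 539 CPM under the RNAiSvb label and 367, 347 and 382 CPM in Ctrl. Pfk, the committed step, was at -1.27 ± 0.27, and Eno and PyK, which act late, were at -0.99 ± 0.19 and -0.92 ± 0.17. Ldh, which makes lactate, had 32.0, 24.2 and 11.2 CPM in SvbRep and 71.2, 155 and 131 CPM under the RNAiSvb label, and lost its call under 8 alternatives. Without SvbRep replicate 3 there were 10 calls, and the number ran from 2 to 10 over the alternatives.

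Polycomb group genes, whose products silence Hox and other developmental genes, were lower in SvbRep at 5 of 17 tested, with none higher. The share called was 29.4%, against 8.70% of all tested genes. Su(z)2 had 124, 115 and 121 CPM in SvbRep, 564, 409 and 655 CPM under the RNAiSvb label and 162, 131 and 121 CPM in Ctrl (-2.18 ± 0.23, adjusted p 7.36e-06). Its neighbour Psc on 2R was at -1.31 ± 0.25, ph-p at -1.0 ± 0.19 and Pcl at -0.85 ± 0.17. At Su(z)2 and Psc, SvbRep and Ctrl were close and the libraries labelled RNAiSvb were the high ones. The number of Polycomb group calls ran from 2 to 7 over the alternatives. With the replicate block or DESeq2, 1 member was called higher.

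UDP-glycosyltransferases, which attach sugars to small lipophilic molecules, were higher in SvbRep at 5 of 19 tested, with none lower and a median of 1.30. Calls made up 26.3% of those tested, against 8.70% of all tested genes. Ugt303B3 had 150, 163 and 297 CPM in SvbRep, 12.9, 24.3 and 25.3 CPM under the RNAiSvb label and 163, 134 and 259 CPM in Ctrl (3.26 ± 0.38, adjusted p 5.39e-05). Between 5 and 6 were called over the alternatives. Tetraspanins, membrane proteins with 4 membrane spans, were higher at 4 of 20 tested (20.0%, against 8.70% of all tested genes called). Their median was 0.66. Tsp29Fa had 123, 115 and 83.6 CPM in SvbRep, 9.40, 19.8 and 12.2 CPM under the RNAiSvb label and 144, 121 and 147 CPM in Ctrl (2.93 ± 0.27, adjusted p 2.03e-06), and its exons share 745 bases with asRNA:CR46071.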
